A study of Homo sapiens with 8 samples.

Results

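The mRNA levels of 10 histone acetyltransferase genes (CREBBP, EP300, KAT2A, KAT2B, KAT5, KAT6A, KAT6B, KAT7, KAT8 and NCOA3) were compared between C4-2 human prostate cancer cells exposed to vehicle or to biguanides. The members were given as a list of gene names, chosen with earlier results of these data known, and all 10 were found among the 57773 features of the deposited expression table. C4-2 is an established androgen-independent cell line derived from LNCaP prostate cancer cells, and every library came from this 1 line, grown in a medium with serum and insulin. The cells received phosphate buffered saline (PBS) vehicle in 3 libraries, 5 mM metformin in 3 libraries or 1 mM phenformin, a related biguanide, in 2 libraries, and RNA was taken after 24 h of metformin or PBS. The labels give the same 24 h for phenformin, a drug that the methods do not mention. Values are RPKM, reads scaled to the exon length of the gene and to the mapped reads of the library. Comparisons of levels between genes therefore rest on the exon lengths used, whose annotation release is not given. No source used here says whether the replicates were grown as separate cultures, so a p-value reflects only how far these libraries scatter, and that scatter may be technical.

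Histone acetyltransferases transfer the acetyl group of acetyl-CoA to lysines of histones and of other proteins, and acetylated lysines are bound by bromodomain and YEATS proteins. CBP (from CREBBP) and p300 (from EP300) are large paralogs recruited to enhancers by many transcription factors, and in prostate cells they serve as coactivators of the androgen receptor, as does SRC-3 (from NCOA3). GCN5 (KAT2A) and PCAF (KAT2B) are the exchangeable catalytic subunits of the SAGA and ATAC complexes. The MYST family holds TIP60 (KAT5), MOZ (KAT6A), MORF (KAT6B), HBO1 (KAT7) and MOF (KAT8), each of which works in a complex with scaffold and reader subunits, some of them shared.

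Read numbers were read back from the spacing of the RPKM values, and 100% of the 25529 features above 0 gave whole numbers within 0.01 read. PBS replicates 1, 2 and 3 held 44774670, 13837455 and 15256449 mapped reads, metformin libraries 14169196 to 15898491 and phenformin libraries 14611068 and 15876543. PBS replicate 1 stood apart. Over features with 10 to 30 reads, it differed from PBS replicates 2 and 3 summed by 0.742 of the variance that independent counting gives, and from each alone by 0.955 and 0.915. The pairs of replicates within a group that do not include it, PBS replicates 2 and 3 among them, differed by 1.284 to 1.385. PBS replicate 1 had fewer reads than replicates 2 and 3 summed in 1624 of 22338 features, so it does not hold all of their reads in every feature. It may hold many of them, and results against PBS were also computed without it. In a further alternative, chosen after seeing the data, all reads of replicates 2 and 3 were subtracted from it, with negative values set to 0. Which reads are shared was not identified. All 9 luminal prostate markers reached 1 RPKM, and their summed level was 1310 to 1470 RPKM in PBS libraries, 488 to 539 in metformin libraries and 636 to 662 in phenformin libraries. None of the 3 basal, 4 neuroendocrine and 4 immune or endothelial markers in the table reached 1 RPKM in any library, while 2 of 4 stromal markers did (highest COL1A1, 2.82 RPKM). The share of mitochondrially encoded mRNAs in the summed RPKM was 23.29% to 24.83% in PBS libraries, 12.74% to 13.61% in metformin libraries and 4.6% to 4.76% in phenformin libraries. On a TPM scale that leaves these mRNAs out, 7 of the 10 genes were higher and 2 lower with metformin, against 26.1% and 50.7% of all genes, and 6 were higher and 3 lower with phenformin, against 22.3% and 43.6%. The filter let 15528 and 16556 genes through on this scale, against 11730 and 12172 in the main fits. These shares thus cover a larger set of genes than those given below.

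In PBS vehicle, KAT2A had the highest level of the 10 genes at 30.1 ± 2.86 RPKM (SD, n = 3) and KAT2B the lowest at 3.69 ± 0.151. EP300 (11.8 ± 0.70), KAT5 (10.3 ± 0.244), CREBBP (7.33 ± 0.349), KAT6A (6.68 ± 0.142), KAT7 (6.38 ± 0.116), KAT8 (5.47 ± 0.20), NCOA3 (4.85 ± 0.15) and KAT6B (3.73 ± 0.0698) lay between them in that order. Of neighbors in this order, only KAT6B and KAT2B had libraries that overlapped. The order was different after exposure. With metformin KAT5 and CREBBP led and overlapped each other, and with phenformin KAT5 led, followed by KAT2A and CREBBP without overlap. Summed over the 10 genes the level was 86.3 to 94.1 RPKM in the PBS libraries, 147.0 to 154.2 in the metformin libraries and 139.7 to 140.0 in the phenformin libraries.

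**Figure D1:**
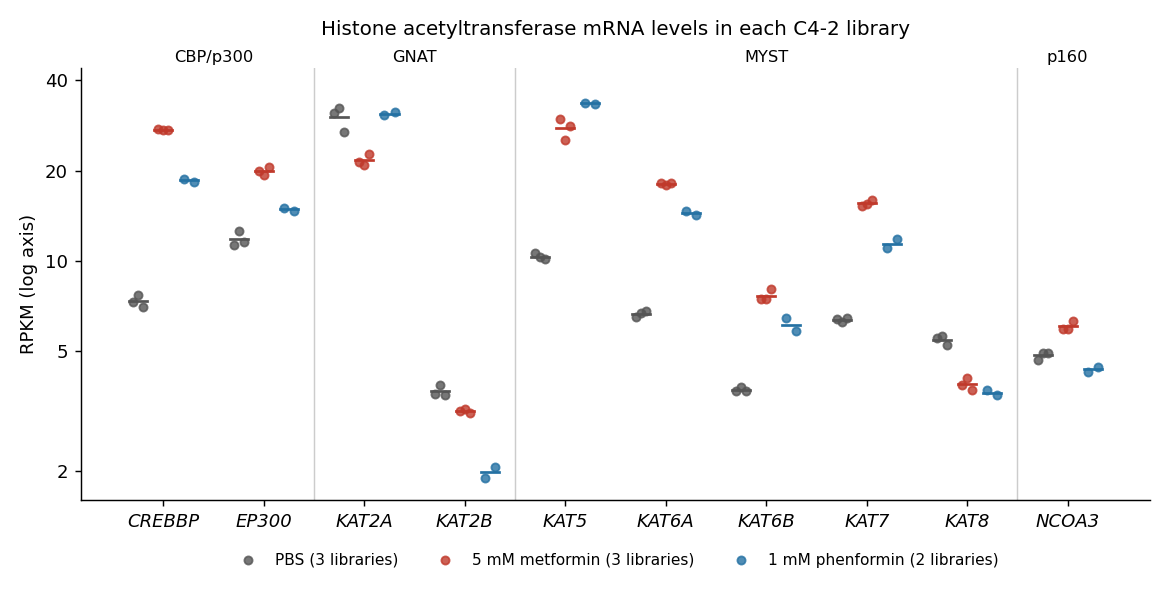
RPKM (log axis) of the 10 genes in each library, with points for libraries, short lines for group means, gray for PBS, red for 5 mM metformin and blue for 1 mM phenformin. CREBBP rose from a PBS mean of 7.33 RPKM to 27.4 with metformin, while KAT2A, KAT2B and KAT8 were lower with metformin in all 3 libraries.

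The question of the comparison with metformin was which of these mRNAs differ from PBS. Of the 10 genes, 7 rose and 3 fell (limma fitted to log2(RPKM + 0.1), on which changes of low genes come out too small, with p adjusted by Benjamini-Hochberg over every gene in the fit), and the metformin and PBS libraries were separate for all 10, as they were for 84.5% of all genes tested. Of all 11730 genes tested, 28.2% passed as higher and 54.8% as lower, and the median log2 change was -0.31 over all genes and 0.89 over these 10. At least 2-fold rises were found for 5 of the 10 genes and for 8.45% of all genes. In such bulk RNA, fewer cells that express a gene and less of its mRNA per cell cannot be told apart. When each library was centered on its median gene, 7 of the 10 were higher and 2 lower, against 36.1% and 46.2% of all genes.

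CREBBP had the largest change. It was 7.28, 7.71 and 7.02 RPKM in the PBS libraries, 27.4, 27.3 and 27.4 in the metformin libraries and 18.8 and 18.3 in the phenformin libraries, so that the groups were far apart and the metformin replicates nearly equal. The share of all genes whose phenformin and PBS libraries separate was not computed, which limits each such statement here and below. The rise with metformin was 3.70-fold (log2 1.89, SE 0.0488, adjusted p = 3.8e-08), and 298 of the 11730 genes (2.54%) rose as much or more. CREBBP is also among the genes that the study picked from these libraries, so its direction here is not independent evidence. EP300 was 11.3, 12.6 and 11.5 RPKM with PBS, 19.9, 19.4 and 20.6 with metformin and 15.1 and 14.7 with phenformin, again without overlap. It rose 1.69-fold with metformin (log2 0.75, SE 0.0557, adjusted p = 5.4e-06). CBP was named for its binding to CREB, a factor that recognizes the cAMP response element with the core TGACG. The sequence before the first annotated transcript start of CREBBP (RefSeq, GRCh38.p14, minus strand, chr16:3880727-3880963) is shown because it belongs to the gene with the largest rise, with each TGACG in capitals.
CREBBP: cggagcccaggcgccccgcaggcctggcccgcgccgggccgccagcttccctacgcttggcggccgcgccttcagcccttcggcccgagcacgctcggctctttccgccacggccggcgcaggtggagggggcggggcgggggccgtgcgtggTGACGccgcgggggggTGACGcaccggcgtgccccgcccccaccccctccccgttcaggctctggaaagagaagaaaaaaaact
The first TGACG began 97 bases and the other 81 bases before the start that RefSeq gives for the gene, which lies beyond the end of the stretch shown. TGACG was searched on both strands in windows from 250 bases before to 50 after the start, where it occurred in 25.0% of 27305 promoters and 2 or more times in 6.22%. RefSeq promoters of 8 of the 10 genes were used here. TGACG occurred in 4 of these 8 and 2 or more times in 3 of them, and it was absent from the windows of EP300, KAT2B, KAT6B and NCOA3. KAT6A and KAT8 were not among these 8. These matches describe letters and not binding sites.

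Of the MYST genes, 4 rose and 1 fell with metformin. KAT5, which encodes the catalytic subunit of the NuA4/TIP60 complex, was 10.6, 10.3 and 10.1 RPKM with PBS, 29.7, 25.3 and 28.2 with metformin and 33.6 and 33.4 with phenformin. All exposed libraries were thus above all PBS libraries. The rise was 2.66-fold with metformin (log2 1.41, SE 0.0635, adjusted p = 4.2e-07). In GENCODE release 29, KAT5 shares 1439 exonic bases with RNASEH2C on the opposite strand (8.02, 5.10 and 8.49 RPKM in the means of PBS, metformin and phenformin), and since the use of strand in counting is not given, reads of the shared stretch cannot be assigned. KAT6A, the gene of MOZ, was 6.52, 6.73 and 6.80 RPKM with PBS, 18.13, 17.96 and 18.11 with metformin and 14.6 and 14.2 with phenformin. It rose 2.68-fold with metformin (log2 1.42, SE 0.0438, adjusted p = 8.3e-08). KAT7, whose product HBO1 acetylates histones H3 and H4 with BRPF or JADE scaffolds, was 6.43, 6.25 and 6.46 RPKM with PBS, 15.2, 15.5 and 16.0 with metformin and 11.02 and 11.83 with phenformin. The difference was 2.41-fold with metformin (log2 1.27, SE 0.0462, adjusted p = 1.6e-07), and the gene shares 295 exonic bases with FAM117A on the opposite strand. KAT6B, the paralog of KAT6A, was 3.68, 3.81 and 3.70 RPKM with PBS, 7.45, 7.46 and 8.07 with metformin and 6.44 and 5.85 with phenformin. It rose 2.02-fold with metformin (log2 1.02, SE 0.0578, adjusted p = 1.3e-06).

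KAT8 went the other way within this family. Its product MOF is the main acetyltransferase for lysine 16 of histone H4. It was 5.52, 5.64 and 5.25 RPKM with PBS, 3.86, 4.08 and 3.73 with metformin and 3.72 and 3.57 with phenformin, so that all exposed libraries were below all PBS libraries. With metformin it fell to 0.716 times the PBS level (log2 -0.48, SE 0.0625, adjusted p = 1.4e-04), and it was also lower after centering (log2 -0.29, adjusted p = 0.00378). The promoter windows of KAT5 and KAT7 held 3 and 2 matches to TGACG. They are shown as 25-base stretches (RefSeq, GRCh38.p14, plus strand), because both genes rose, with TGACG or its reverse complement in capitals, and are set beside the 1 match of KAT2A (minus strand), a gene that fell with metformin.
KAT5, chr11:65712007-65712031: cggtgggCGTCACGTGACGgactca
KAT5, chr11:65712216-65712240: ccggaagTGACGtctcccagagggg
KAT7, chr17:49788611-49788635: cccgtaaCGTCAggTGACGcgagac
KAT2A, chr17:42121386-42121410: caactccCGTCAtgcgccgcgcagc
In the first KAT5 stretch the matches lie on opposite strands and each shares bases with a CACGTG between them, the E-box read by MYC and USF factors, which occurred in 7.4% of all promoters. The matches of KAT5 began 238, 231 and 29 bases before the start, those of KAT7 63 and 56 bases and that of KAT2A 36 bases before it.

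Both GNAT genes were lower with metformin. KAT2A was 31.0, 32.3 and 26.9 RPKM with PBS, 21.4, 20.9 and 22.8 with metformin and 30.5 and 31.4 with phenformin. Only the metformin libraries stood below the PBS range, at 0.724 times the PBS level (log2 -0.47, SE 0.0739, adjusted p = 4.7e-04). KAT2B was 3.603, 3.861 and 3.595 RPKM with PBS, 3.16, 3.23 and 3.12 with metformin and 1.90 and 2.07 with phenformin. The fall with metformin was small (0.864 times, log2 -0.21, SE 0.0637, adjusted p = 0.0147) and did not hold after centering (log2 -0.02, adjusted p = 0.76), without PBS replicate 2 (log2 -0.18, adjusted p = 0.0656), or with PBS replicate 1 reduced to its remaining reads (log2 -0.18, adjusted p = 0.0704). On the TPM scale, which fixes the summed level of each library, KAT2B was at log2 0.05 (adjusted p = 0.533). KAT2B had the fewest reads of the 10 genes, 170 in each phenformin library, which gives a counting error of 7.67%.

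NCOA3, the p160 coactivator gene, was 4.68, 4.94 and 4.94 RPKM with PBS, 5.92, 5.94 and 6.32 with metformin and 4.29 and 4.45 with phenformin. The metformin libraries were above and the phenformin libraries below the PBS range. The rise with metformin was 1.24-fold (log2 0.31, SE 0.0572, adjusted p = 0.00105).

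**Figure D2:**
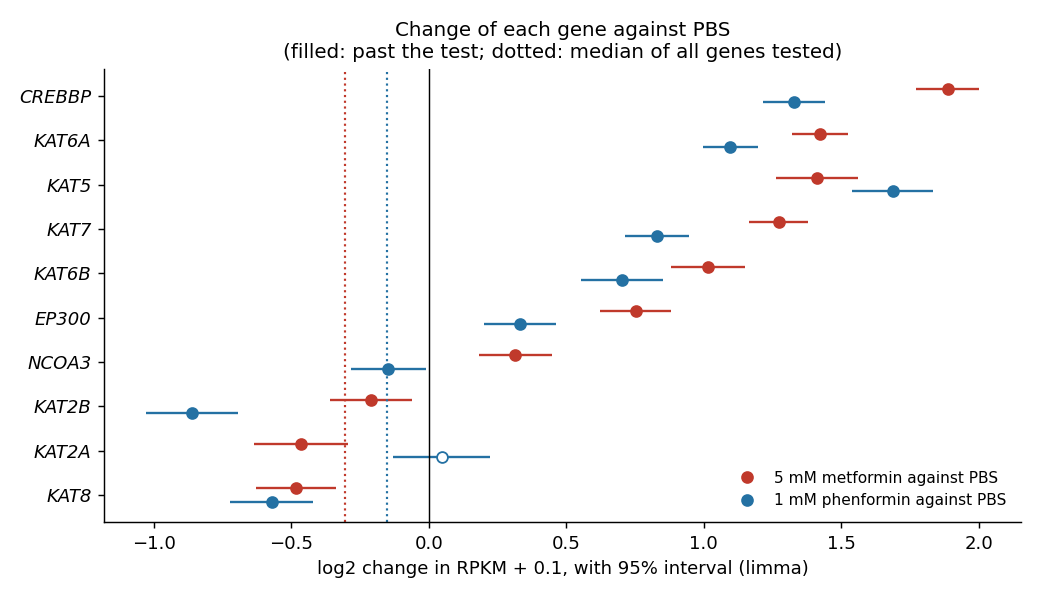
Log2 change in RPKM + 0.1 against PBS with its 95% interval, for 5 mM metformin (red) and 1 mM phenformin (blue), with filled points past the test, an open point not past it and dotted lines at the median of all genes tested (-0.31 and -0.15). CREBBP had the largest rise with metformin (log2 1.89) and KAT5 with phenformin (log2 1.69).

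With 1 mM phenformin, 6 of the 10 genes were higher than with PBS, 3 were lower and KAT2A did not pass, against 31.2% of all 12172 genes tested that were higher and 45.4% that were lower. The median log2 change was 0.52 over the 10 genes and -0.15 over all genes. After centering 6 were higher and 2 lower, where 35.6% and 41.2% of all genes were. At least 2-fold rises were found for 3 of the 10 genes, CREBBP, KAT5 and KAT6A, and for 7.73% of all genes. These comparisons share the PBS libraries with those of metformin.

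KAT5 had the largest rise with phenformin, 3.22-fold (log2 1.69, SE 0.0652, adjusted p = 1.0e-07). CREBBP rose 2.51-fold (log2 1.33, SE 0.0496, adjusted p = 9.1e-08) and EP300 1.26-fold (log2 0.33, SE 0.0575, adjusted p = 6.8e-04). KAT6A (2.14-fold), KAT7 (1.78-fold) and KAT6B (1.63-fold) also rose, with adjusted p of 1.2e-07, 1.2e-06 and 1.5e-05. KAT2B fell to 0.550 times the PBS level (log2 -0.86, SE 0.0727, adjusted p = 8.0e-06) and KAT8 to 0.673 times (log2 -0.57, SE 0.066, adjusted p = 5.5e-05). KAT2A differed by log2 0.05 (95% interval -0.13 to 0.22, adjusted p = 0.607), and its phenformin libraries lay within the PBS range. NCOA3 was at 0.902 times the PBS level with an adjusted p of 0.0482. This call was lost in 15 of 19 alternatives, among them centering (log2 -0.05, adjusted p = 0.41) and leaving out PBS replicate 1 (log2 -0.17, adjusted p = 0.0616), and the value was above 0 on the TPM scale (log2 0.11).

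Without PBS replicate 1 the calls for the other genes stood, with CREBBP at log2 1.88 for metformin and 1.32 for phenformin, KAT5 at 1.43 and 1.71, KAT6A at 1.41 and 1.08, KAT7 at 1.28 and 0.84, KAT6B at 1.01 and 0.69, EP300 at 0.72 and 0.30, and KAT8 at -0.48 and -0.57. KAT2A was at log2 -0.44 for metformin and NCOA3 at 0.29, both past the test, as was KAT2B at -0.23 for metformin (adjusted p = 0.0476) and at -0.88 for phenformin. With all reads of PBS replicates 2 and 3 subtracted from replicate 1 instead, CREBBP was at log2 1.89 and 1.34, KAT5 at 1.38 and 1.65, and EP300 at 0.82 and 0.40. KAT6A was then at 1.46 and 1.13, KAT7 at 1.26 and 0.82, KAT6B at 1.03 and 0.72, and KAT8 at -0.50 and -0.59. The direction of these 7 genes was therefore the same whichever way PBS replicate 1 was treated.

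The doses of the 2 drugs differ, so a test between the exposed groups compares 5 mM metformin with 1 mM phenformin as given and not the compounds at 1 dose. Of the 10 genes, 7 were lower and 2 higher with phenformin than with metformin, where 25.6% and 39.5% of all genes were, and the median over all genes was 0.13 on the log2 scale. CREBBP, EP300, KAT2B, KAT6A, KAT6B, KAT7 and NCOA3 were lower with phenformin, and KAT2A and KAT5 were higher. KAT8 differed by log2 -0.09 (95% interval -0.24 to 0.06, adjusted p = 0.257). The libraries of the 2 exposed groups were separate for all 10 genes and for 76% of all genes tested.

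The mean changes of the paralogs differed within each pair in these libraries, though no test of the ratios could pass 0.05. CREBBP made up 39.2%, 38.0% and 37.8% of the summed RPKM of CREBBP and EP300 in the PBS libraries, 57.9%, 58.5% and 57.1% with metformin and 55.5% in both phenformin libraries. By RPKM, EP300 was thus the more abundant mRNA of the pair in all 3 PBS libraries and CREBBP in all 5 exposed libraries. This ranking rests on the lengths read back for the genes, 15068 bases for CREBBP and 9585 for EP300. Reads in the PBS libraries were nearly equal, 4911, 1607 and 1613 for CREBBP and 4842, 1671 and 1686 for EP300. A fixed length does not alter how the ratio differs between groups, apart from the added 0.1. The log2 ratio of CREBBP to EP300 was higher than with PBS by 1.13 with metformin and by 0.995 with phenformin. A factor that scales all genes of a library cancels in this ratio, apart from the added 0.1. The ratio of KAT6A to KAT6B was also higher, by 0.405 and 0.394 on the log2 scale, and KAT6A made up 63.8% to 64.7% of the pair in PBS libraries, 69.2% to 70.9% in metformin libraries and 69.4% to 70.8% in phenformin libraries. For KAT2A and KAT2B the difference in the log2 ratio was -0.255 with metformin and 0.908 with phenformin, so that KAT2A took 88.2% to 89.6% of the pair in PBS libraries, 86.6% to 87.9% in metformin libraries and 93.8% to 94.1% in phenformin libraries. In all 6 comparisons the libraries of the groups did not overlap, and each two-sided exact permutation test gave p = 0.1 (0.1 after adjustment over the 6), the smallest that 3 against 3 or 3 against 2 libraries allow, so none could pass 0.05. Of single genes, 84.5% also had separate libraries between metformin and PBS. How often ratios of other gene pairs separate was not computed.

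**Figure D3:**
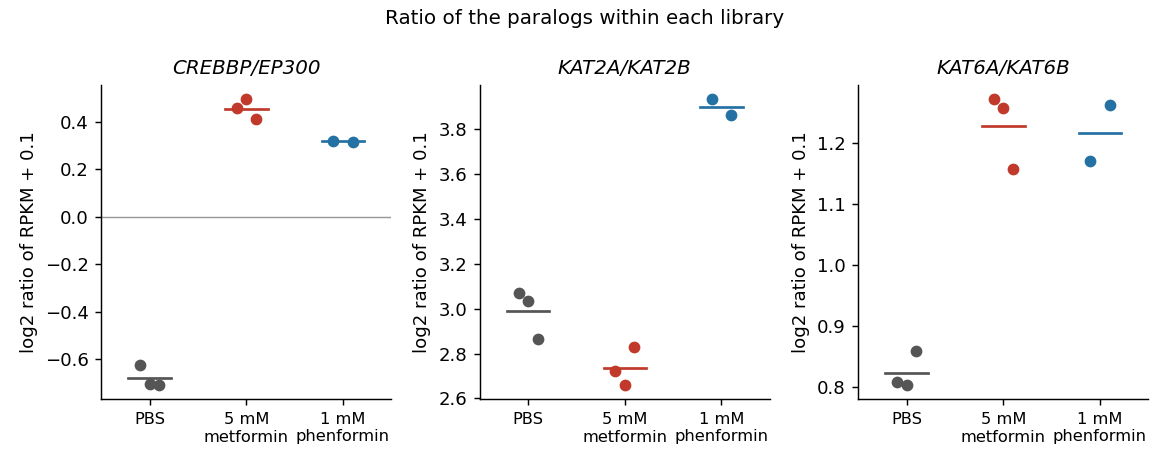
Log2 ratio of RPKM + 0.1 between paralogs in each library (points) with group means (lines), for PBS in gray, 5 mM metformin in red and 1 mM phenformin in blue, on a separate axis for each pair. The CREBBP/EP300 ratio was below 0 in all PBS libraries and above 0 in all exposed libraries, and the KAT2A/KAT2B ratio was lowest with metformin and highest with phenformin.

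The partner subunits and related genes were described by lists. Each count below is to be read against the shares of all genes tested. These were 28.2% higher and 54.8% lower with metformin, and 31.2% higher and 45.4% lower with phenformin. Of 23 SAGA and ATAC partners, 12 rose, 6 fell and 5 did not pass with metformin, with a median log2 change of 0.17, and 13 rose and 4 fell with phenformin (2 fell without phenformin replicate 1). The ATAC subunit MBIP rose from 3.31 ± 0.156 to 19.3 ± 0.944 RPKM (SD, n = 3 each, log2 2.51, adjusted p = 2.6e-08) and was at 9.45 with phenformin. ZZZ3, an ATAC subunit that binds histone H3, rose from 7.52 ± 0.336 to 22.2 ± 0.889 RPKM (log2 1.55), and TAF5L of SAGA and DR1 of ATAC rose by log2 1.15 and 1.11. TAF9, which SAGA shares with TFIID, had 31.7 RPKM with PBS and 33.7 with metformin (adjusted p = 0.0987). KAT2A and KAT2B themselves had not risen with metformin.

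Of 17 NuA4/TIP60 partners, 12 rose, 4 fell and 1 did not pass with metformin (median log2 0.56), and the counts with phenformin were 12 higher and 4 lower. EPC1, a scaffold on which the catalytic module of KAT5 assembles, rose from 3.01 ± 0.146 to 15.4 ± 0.443 RPKM with metformin (log2 2.32, adjusted p = 3.0e-08) and was at 12.01 with phenformin. Its paralog EPC2 rose from 4.34 ± 0.0794 to 15.5 ± 0.157 RPKM (log2 1.81). MRGBP and ING3, which belong to the same complex, rose by log2 1.27 and 1.31, and the ATPase gene RUVBL2 was at 10.9 and 9.98 RPKM (adjusted p = 0.16).

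Of the 9 partners of the BRPF and JADE complexes of KAT6A, KAT6B and KAT7, 6 rose and 3 fell with each drug, with a median log2 change of 1.01 with metformin and 0.31 with phenformin. The scaffold genes JADE1 (2.59 ± 0.266 to 9.78 ± 0.162 RPKM), BRD1 (6.76 ± 0.333 to 24.3 ± 0.746 RPKM) and BRPF1 (log2 1.56) rose with metformin. ING4, a reader of methylated histone H3, fell from 6.47 ± 0.0618 to 2.81 ± 0.213 RPKM with metformin (log2 -1.18, adjusted p = 1.6e-06) and was at 2.81 with phenformin.

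Of 11 partners of KAT8 in the MSL and NSL complexes, 7 rose, 2 fell and 2 did not pass with metformin (median log2 0.36), and 6 rose and 3 fell with phenformin. Without metformin replicate 3, 4 of them fell with metformin, and without phenformin replicate 2, 1 fell with phenformin. KANSL1, the NSL scaffold, rose from 5.88 ± 0.0452 to 22.7 ± 0.264 RPKM (log2 1.93, adjusted p = 2.1e-08), MSL2 from 7.56 ± 0.229 to 25.9 ± 0.276 RPKM (log2 1.76) and PHF20 by log2 0.77. MSL3, the chromodomain subunit of MSL, fell by 0.73 on the log2 scale, as KAT8 itself had fallen. WDR5 had 13.5 RPKM with PBS and 12.8 with metformin (adjusted p = 0.216).

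Of the 18 genes listed as recruiters or modulators of CBP and p300, 16 were tested, of which 11 rose, 1 fell and 4 did not pass with metformin (median log2 0.75), and the counts with phenformin were the same. Without PBS replicate 3, 2 fell with metformin. CITED2, which binds the TAZ1 domain of CBP and p300, rose from 17.8 ± 0.49 to 71.2 ± 6.78 RPKM with metformin (log2 1.99, adjusted p = 1.4e-07) and was at 131.1 with phenformin (log2 2.87, adjusted p = 1.6e-08). The CREB family gene ATF1 rose from 16.4 ± 1.0 to 40.7 ± 1.88 RPKM, CRTC3, a CREB coactivator, by log2 1.77 from a PBS level of 0.818 RPKM, and SMAD4 by log2 1.23. STAT3 was at 28.3 and 28.5 RPKM (adjusted p = 0.89).

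Genes of other acetyltransferases were counted in the same way. Of 8 tested, 2 rose, 5 fell and 1 did not pass with metformin (median log2 -0.21), and 1 rose and 5 fell with phenformin. The counts with metformin were close to the shares of all genes, 28.2% higher and 54.8% lower. With phenformin those shares were 31.2% and 45.4%. Without PBS replicate 1, 3 fell with metformin and 0 rose with phenformin, and 0 rose with phenformin also without PBS replicate 2 or either phenformin replicate. NAA40, which acetylates the N termini of histones H2A and H4, fell from 5.01 ± 0.336 to 1.69 ± 0.116 RPKM (log2 -1.51, adjusted p = 1.1e-06). TAF1 of TFIID and the ATAC acetyltransferase KAT14, listed under its older symbol CSRP2BP, fell by 0.91 and 0.59 on the log2 scale, while GTF3C4 of TFIIIC rose by 0.87. ELP3, of the elongator complex, was at 9.33 and 10.0 RPKM (adjusted p = 0.212). The difference between these genes and the 10 was not tested.

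Of 21 acetyl-lysine readers tested, 11 rose, 4 fell and 6 did not pass with metformin (median log2 0.21), and 11 rose and 6 fell with phenformin. ATAD2, an androgen receptor coregulator, fell from 13.7 ± 0.217 to 4.81 ± 0.274 RPKM with metformin (log2 -1.49), and the chromatin remodeling ATPase gene SMARCA2 fell from 7.0 ± 0.0876 to 2.45 ± 0.195 RPKM (log2 -1.48). PBRM1, a subunit of the PBAF remodeler, was at 16.8 RPKM with PBS, 34.1 with metformin (log2 1.02) and 15.2 with phenformin (log2 -0.15, adjusted p = 0.0397, not past the test after centering). MLLT1, a YEATS domain reader, was at 23.6 and 23.8 RPKM with PBS and metformin (adjusted p = 0.863).

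Of the 10 genes that supply or transport acetyl-CoA, the substrate of these enzymes, none rose, 8 fell and 2 did not pass with metformin (median log2 -0.38, against -0.31 over all genes). Among all genes 28.2% rose and 54.8% fell with metformin. After centering 2 were higher and 6 lower, against 36.1% and 46.2% of all genes. With phenformin 2 rose and 6 fell, where 31.2% and 45.4% of all genes did. SLC33A1, which carries acetyl-CoA into the endoplasmic reticulum, fell from 15.9 ± 0.351 to 2.39 ± 0.169 RPKM (log2 -2.69, adjusted p = 2.6e-08), and ACSS1, the mitochondrial acetyl-CoA synthetase, from 3.72 ± 0.107 to 0.621 ± 0.0545 RPKM (log2 -2.41). ACLY, which makes cytosolic and nuclear acetyl-CoA from citrate, fell from 78.5 ± 2.02 to 50.4 ± 4.14 RPKM with metformin (log2 -0.64) and was at 59.8 with phenformin. ACSS2, which makes it from acetate, was at 9.33 ± 0.39 RPKM with PBS, fell to 6.42 ± 0.401 with metformin (log2 -0.53) and rose to 12.5 with phenformin (log2 0.42, adjusted p = 3.4e-04). DLD had 51.2 RPKM with PBS and 50.9 with metformin (adjusted p = 0.863).

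**Figure D4:**
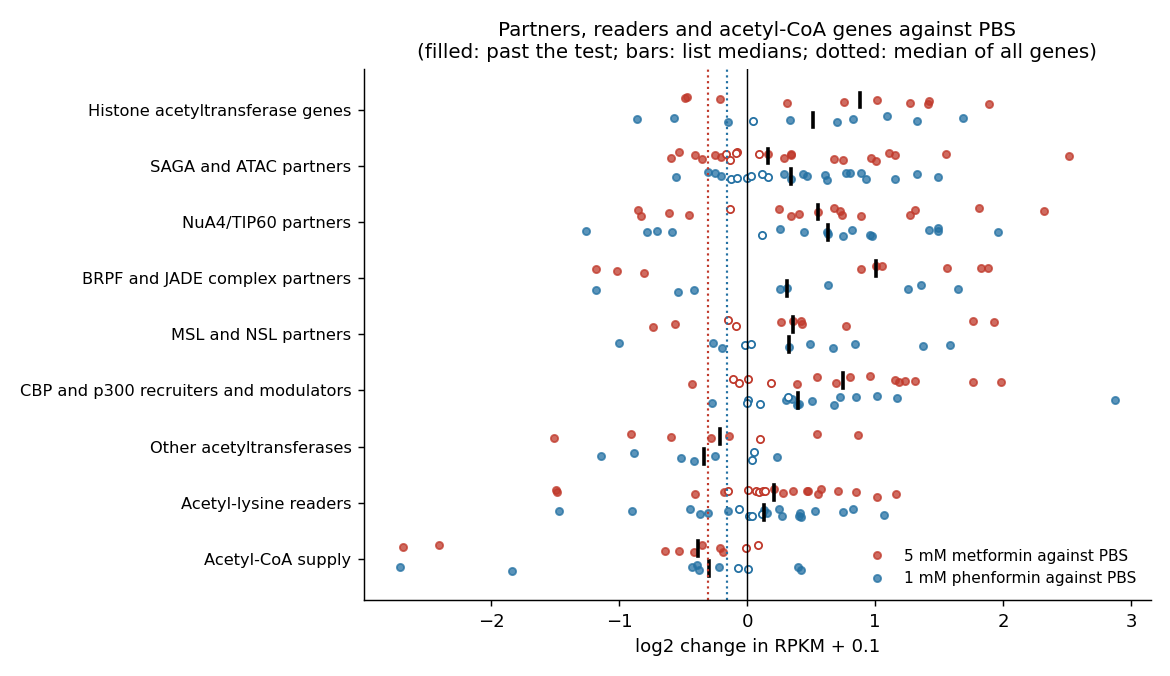
Log2 change in RPKM + 0.1 against PBS of the 10 acetyltransferase genes and of the tested genes of 8 lists, for 5 mM metformin (red) and 1 mM phenformin (blue), with filled points past the test, black bars at list medians and dotted lines at the median of all genes. The medians with metformin were 1.01 for the BRPF and JADE partners, 0.89 for the 10 genes and -0.38 for acetyl-CoA supply.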

How the data were processed

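Total RNA of C4-2 cells was made into TruSeq mRNA libraries and sequenced on an Illumina HiSeq. Mapping and quantification were done by the authors with CLC Genomics Workbench 7.0, and RPKM values per gene were deposited. The submitters' processing notes name GRCh37.p13 as the build, and the annotation release was not given in the sources used here. Groups followed the labels. The log2(RPKM + 0.1) values were fitted in R 4.3.3 with limma 3.58.1 (lmFit, eBayes with trend, Benjamini-Hochberg, limit 0.05). Metformin was compared with PBS in 6 libraries, using genes that reached 1 RPKM in 3 or more of them. Phenformin was compared with either group in 1 fit of all 8, using genes that reached 1 RPKM in 2 or more. Paralog ratios and their permutation tests were also computed in R. Motifs and recovered reads were computed in Python 3.11.15 with numpy 2.4.6 and pandas 2.3.3. On simulated data, 98%, 93% and 91% of genes changed 1.5-fold were called in the comparisons of metformin with PBS, phenformin with PBS and phenformin with metformin, and 1.49%, 7.21% and 4.98% of the calls were false. The simulated libraries were independent, scattered little beyond counting and had only few changed genes. In the real data most genes were called and PBS replicate 1 may share reads, so these rates need not hold here. The members and lists were chosen with earlier results of these data known. From each list the text names up to 4 genes with the largest change with metformin past the test and the most abundant gene that did not pass. Of these, 1 gene is not reported here. Of 114 list genes, 113 were found in the table. Alternatives were other pseudocounts, filters, scalings and fits, a replicate block and each library left out.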

Additional observations from a re-analysis of the deposited data

Results flagged for a closer look

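The change against PBS differed between 5 mM metformin and 1 mM phenformin for 9 of the 10 genes, by limma's test of the difference between the exposed groups, and for each of the 9 the libraries of these groups did not overlap, as was so for 76% of all genes tested. The doses differ, so this is no comparison of the compounds at 1 dose. On the log2 scale, phenformin minus metformin was -0.56 for CREBBP (adjusted p = 2.5e-05), -0.42 for EP300 (adjusted p = 2.7e-04), -0.65 for KAT2B (adjusted p = 8.6e-05), -0.33 for KAT6A (adjusted p = 2.5e-04), -0.31 for KAT6B (adjusted p = 0.00289), -0.44 for KAT7 (adjusted p = 1.0e-04) and -0.46 for NCOA3 (adjusted p = 2.0e-04). It was 0.51 for KAT2A (adjusted p = 4.8e-04) and 0.28 for KAT5 (adjusted p = 0.00555). The direction of all 9 held under the 18 or 19 alternatives that could be computed for each, with CREBBP between -0.70 and -0.54 and KAT5 between 0.14 and 0.32. Of all genes, 39.5% were higher and 25.6% lower with phenformin. In no group were there enough libraries to test single values as outliers.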

How the results depend on the processing

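Of the 10 genes, 8 to 10 passed the test of metformin against PBS under the alternatives, 6 to 9 that of phenformin against PBS and 8 to 10 that of phenformin against metformin. Of all genes, 9729 of 11730, 9313 of 12172 and 7923 of 12172 passed in the main fits, so these counts alone do not set the 10 apart. The lowest counts came from a mean RPKM of at least 5, which left 8 of the 10 genes to test. With that filter 5622 of 6685, 5352 of 6698 and 5005 of 6698 of all genes passed. With each PBS or metformin replicate left out in turn the counts were 9 to 10, 8 throughout and 9 throughout. Of all genes, 8104 to 9396, 8668 to 9034 and 7547 to 7780 passed in these fits. Values that changed direction and passed the test on either side of the change were, with metformin, KAT2B under quantile normalization (log2 0.14, adjusted p = 0.0788) and on the TPM scale (log2 0.049), DLD after median-centering (log2 0.18) and on the TPM scale (log2 0.26), and WDR5 on the TPM scale (log2 0.18). With phenformin these were NCOA3 (log2 0.11), CSRP2BP (log2 0.009) and PBRM1 (log2 0.12), all on the TPM scale. On the TPM scale without mitochondrial genes, KAT2B with metformin was at log2 -0.14 (adjusted p = 0.103). KAT2A passed as higher with phenformin on the TPM scale only (log2 0.31, adjusted p = 0.00279), and it was below 0 without passing on the TPM scale without mitochondrial genes (log2 -0.016) and without PBS replicate 3 (log2 -0.033). Among named list genes that passed in neither fit, small values also changed sign, such as RUVBL2 (log2 0.05) and WDR5 (log2 0.10) with metformin after centering. KAT8 passed as lower with phenformin than with metformin under quantile normalization (log2 -0.21) and on the TPM scale without mitochondrial genes (log2 -0.23). Replicate numbers are shared by the groups, but same-numbered libraries did not deviate together (correlations -0.08 to 0.01). With a replicate block, 10, 8 and 9 of the 10 genes passed, NCOA3 with phenformin losing its call (log2 -0.13, adjusted p = 0.126). Of all genes, 9582 of 11730, 8906 of 12172 and 7312 of 12172 passed with this block. CREBBP kept its rise under every alternative run (log2 1.77 to 2.16 with metformin), as did KAT5 with phenformin (1.61 to 1.96). List counts moved by over 1.5 times in 4 of 160 computed counts of rises and 16 of 160 of falls with metformin, and in 9 of 152 and 14 of 152 with phenformin. With metformin the falls ranged from 0 to 3 for the BRPF and JADE partners, 1 to 5 for other acetyltransferases, 3 to 7 for SAGA and ATAC, 1 to 4 for MSL and NSL and 5 to 8 for acetyl-CoA supply, whose rises ranged from 0 to 2. Rises of other acetyltransferases with phenformin ranged from 0 to 3. The lowest falls with metformin of BRPF and JADE, MSL and NSL and other acetyltransferases came from a mean RPKM of at least 5. That filter leaves genes of lower level untested, among them the falling ING4, ING5 and JADE2. Beyond this, the cause was not tested.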
